A study of Mus musculus with 8 samples.

Results

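The 9 genes described here encode components, a regulator and receptors of the complement system: the C1q chain genes C1qa, C1qb and C1qc, the protease gene C1ra, the inhibitor gene Serping1, the central components C4b and C3, and the anaphylatoxin receptor genes C3ar1 and C5ar1. They were picked by gene symbol from the 56691 genes of a deposited table of read counts, and all 9 were found. The counts are of ribosome-associated mRNA from mouse ventral tegmental area (VTA), a midbrain region whose dopamine neurons serve reward and motivation. Males of genotype Ogtflox+/Y (the Ogt knockdown group, 4 libraries, replicates 2 to 5) were compared with Ogtflox-/Y mice (the control group, 4 libraries, replicates 3 to 6), to ask how Ogt knockdown changes the messages of dopamine neurons. The product of Ogt is O-GlcNAc transferase, which attaches the sugar O-GlcNAc to proteins inside the cell. Mice of both groups received the same viruses in the VTA, AAV-TH-Cre and AAV-Flex-NBL10, so the controls carry Cre and NBL10 too. AAV-TH-Cre is named for the tyrosine hydroxylase (TH) promoter, and NBL10 carried an HA tag through which ribosome-associated mRNA was enriched. The labels state neither age nor whether each library is a separate animal. The p-values therefore reflect library-to-library spread alone, part of which may be technical.

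Complement is a cascade of proteins that tags material for uptake by phagocytes. In the classical pathway C1q binds a target, its partner proteases C1r and C1s are switched on and cleave C4 and C2, and the enzyme that forms cleaves C3, whose fragments coat the target and, as C3a, signal through the C3a receptor. C5 is cleaved further down the cascade, and its fragment C5a signals through the C5a receptor. In brain, C1q is made chiefly by microglia, C4 and C3 are made by glia, and the classical pathway is known for its part in the removal of synapses by microglia.

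Libraries held 49802305 to 147747191 counted reads, so that 3 reads, the floor of detection, correspond to 0.0203 to 0.0602 CPM (read counts scaled to library size), for counting error only. Ogt itself had 108.3 to 159.4 CPM in control and 35.99 to 74.4 CPM in knockdown libraries (log2 fold change -1.34 with SE 0.23, edgeR adjusted p = 0.00243). The 7 dopamine neuron markers examined, Th among them, were present in both groups and were lower in knockdown (summed level 1178 to 2573 CPM in control and 339 to 544 CPM in knockdown libraries, 7 of 7 lower by edgeR's test). Markers of other cells were present as well. The summed level of 10 microglia markers was 25.6 to 40.1 CPM in control and 41.4 to 101 CPM in knockdown libraries, and that of 8 astrocyte markers was 664 to 3790 CPM and 7889 to 11984 CPM. The rise was not particular to these cells. The summed level of 6 oligodendrocyte markers was 940 to 1394 CPM in control and 1464 to 3594 CPM in knockdown libraries. Both libraries numbered 3 stood apart from the rest of their groups. Control replicate 3 had 485.6 CPM of 5 endothelial markers, against 5.48 to 12.05 CPM in the other controls and 15.2 to 25.8 CPM in knockdown libraries. It was also highest for 4 pericyte markers (310.9 CPM, other controls 7.49 to 10.4, knockdown libraries 16.6 to 25.1 CPM). The same held for 5 fibroblast markers (28.9 CPM, other controls 7.70 to 8.24, knockdown libraries 11.3 to 24.1 CPM). No marker of these 3 lists passed edgeR's test. In libraries enriched through a tag, more cells of a type, more RNA per cell and a changed enrichment cannot be told apart.

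Complement messages were higher in the knockdown libraries. Of the 9 members, 8 rose, 0 fell and 1, C5ar1, did not pass the test (edgeR quasi-likelihood test, Benjamini-Hochberg adjusted p under 0.05 over 19912 genes). Among all genes tested, 28.5% passed the test and 13.4% rose. The 8 rises ran from 4.40-fold for C1ra to 7.62-fold for C1qa. The median log2 fold change of the 9 members was 2.48, against 0.00 for all genes tested. The members were chosen with earlier results of these data known, so the comparisons with all genes are descriptions only. For 8 members each knockdown library lay above each control library, which was the case for 17.1% of all genes tested. All 9 passed the filter on low counts, 8 of them also on their control libraries alone, while C5ar1 passed through its knockdown libraries. With both libraries numbered 3 left out, 7 of these 8 still passed as higher and C1ra missed the threshold.

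**Figure D1:**
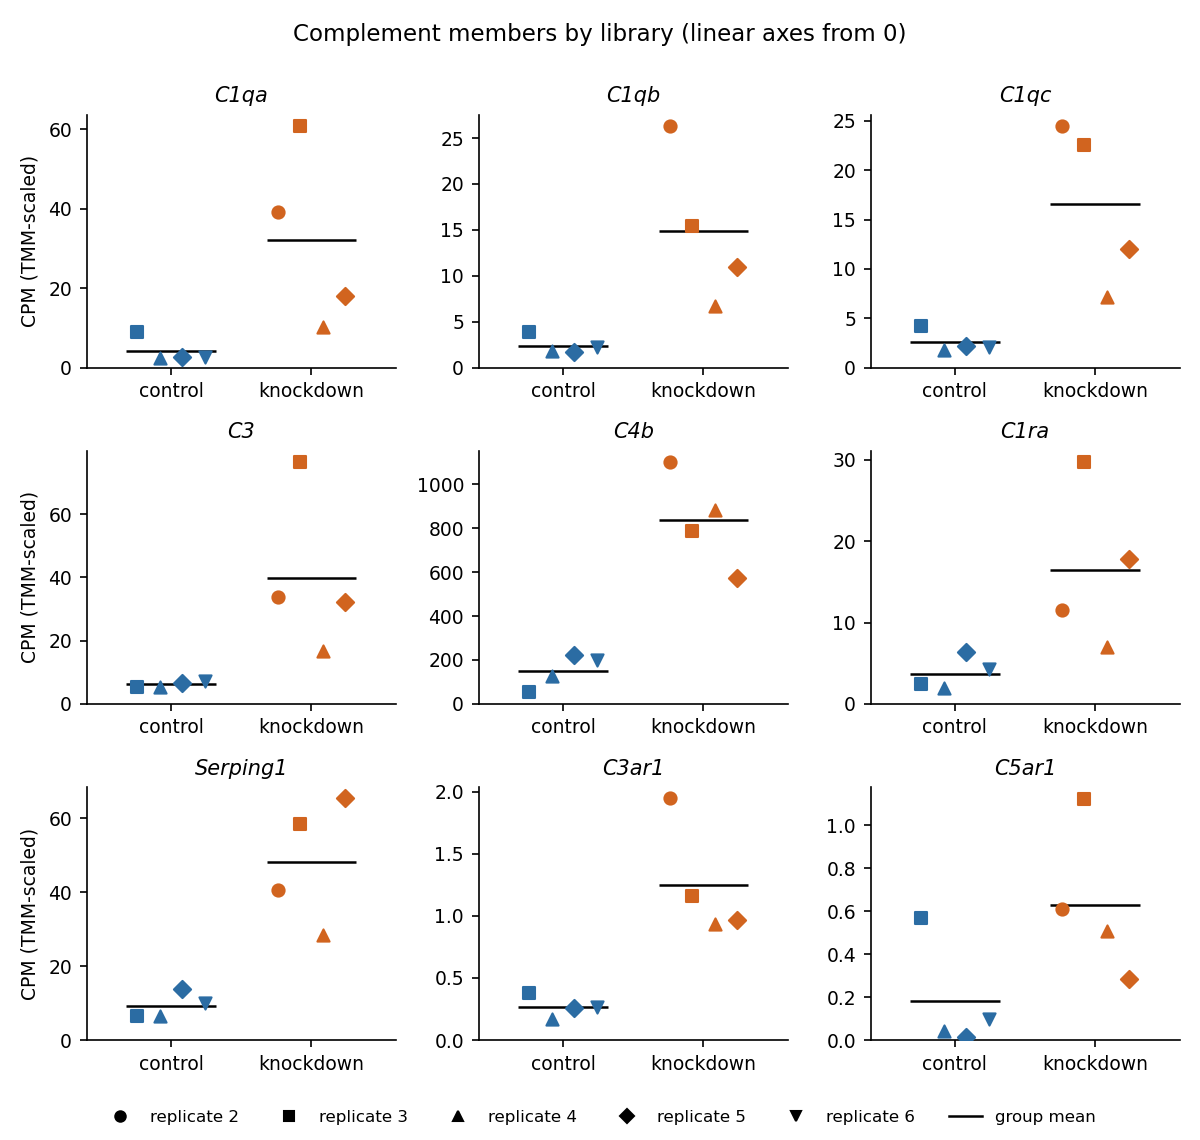
Level of each of the 9 members in each library, in TMM-scaled CPM on linear axes that start at 0. Points are single libraries, marker shape gives the replicate number, and bars are group means of 4 libraries; C5ar1 is the only panel in which the groups overlap, through control replicate 3.

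The C1q chains are the recognition subunits of the classical pathway. Their genes, C1qa (ENSMUSG00000036887.6, GRCm39 chromosome 4, 136623228 to 136626114), C1qb (ENSMUSG00000036905.9, 136607440 to 136613498) and C1qc (ENSMUSG00000036896.6, 136617115 to 136620376), lie next to each other on the minus strand. C1qa had 8.88, 2.55, 2.67 and 2.74 CPM in control replicates 3, 4, 5 and 6, and 39.2, 60.7, 10.3 and 18.1 CPM in knockdown replicates 2, 3, 4 and 5. The groups did not overlap, but knockdown replicate 4 was only slightly above control replicate 3. C1qa rose from 4.21 ± 3.11 to 32.1 ± 22.6 CPM (n = 4, SD), a log2 fold change of 2.93 (SE 0.63) at an edgeR adjusted p of 0.0089. Without control replicate 3 the rise was 12.01-fold (edgeR adjusted p = 0.00111), against 7.62-fold with it.

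C1qb had 3.83, 1.80, 1.72 and 2.23 CPM in control replicates 3, 4, 5 and 6, and 26.3, 15.5, 6.66 and 10.9 CPM in knockdown replicates 2, 3, 4 and 5. C1qc had 4.21, 1.80, 2.17 and 2.09 CPM in the same controls and 24.5, 22.6, 7.14 and 12.03 CPM in the same knockdown libraries. The pair thus kept one order among knockdown libraries, replicate 2 above 3, 5 and 4, and in both the highest control was replicate 3. C1qb rose 6.20-fold (log2 fold change 2.63 with SE 0.43, edgeR adjusted p = 0.00207). C1qc rose 6.44-fold (log2 fold change 2.69 with SE 0.43, edgeR adjusted p = 0.00176). Microglia markers moved with all 3 chains: 7 of 10 rose, 0 fell and the defining markers Cx3cr1, P2ry12 and Tmem119 were among those that rose (Cx3cr1 from 1.31 ± 0.28 to 6.32 ± 2.56 CPM, SD, n = 4).

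The promoters of C1qb and C1qc are shown because these neighbours changed together. That of C3 is shown because it lies further down the cascade and ranked the knockdown libraries differently from C1qb and C1qc. C1qa ranked these libraries as C3 did, replicate 3 above 2, 5 and 4. RefSeq promoter sequences (GRCm38.p6, an older build than that of the count table) were matched for 6 of the 9 members, and not for C1qa, C4b or Serping1. Each run below is the 250 bases before the RefSeq start, 5′ to 3′ on the gene's strand. Capitals mark matches to any of 5 motifs searched on both strands: a STAT core TTCNNNGAA, a C/EBP-type core TTNNGNAA, an AP-1 core TGANTCA, an ETS-type core GAGGAA and the interferon-stimulated response element (ISRE) core.
C1qb promoter, chr4:136886201-136886450, minus strand: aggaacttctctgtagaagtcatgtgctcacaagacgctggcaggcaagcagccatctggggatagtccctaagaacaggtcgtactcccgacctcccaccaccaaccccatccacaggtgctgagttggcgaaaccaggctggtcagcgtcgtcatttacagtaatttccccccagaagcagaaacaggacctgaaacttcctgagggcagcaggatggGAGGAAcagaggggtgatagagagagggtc
C1qc promoter, chr4:136892915-136893164, minus strand: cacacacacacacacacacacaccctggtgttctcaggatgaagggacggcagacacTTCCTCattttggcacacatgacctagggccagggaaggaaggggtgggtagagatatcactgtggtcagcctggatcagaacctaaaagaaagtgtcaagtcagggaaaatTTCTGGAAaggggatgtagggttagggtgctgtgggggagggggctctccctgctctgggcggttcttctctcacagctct
C3 promoter, chr17:57228137-57228386, minus strand: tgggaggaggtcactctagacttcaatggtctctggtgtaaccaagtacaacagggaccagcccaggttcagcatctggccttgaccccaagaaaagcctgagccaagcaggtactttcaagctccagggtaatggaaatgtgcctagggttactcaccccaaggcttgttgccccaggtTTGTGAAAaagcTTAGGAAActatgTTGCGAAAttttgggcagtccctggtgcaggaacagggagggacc
The C1qb run held 1 match, to GAGGAA. The C1qc run held 1 match to GAGGAA, on the opposite strand, and 1 to TTNNGNAA. The C3 run held matches to TTNNGNAA at 3 places, and the one nearest the start matched on both strands. Of 32851 promoters in the same table, 23.3% held GAGGAA and 36.8% TTNNGNAA in a window of this length. No match to TTCNNNGAA, TGANTCA or the ISRE core was present in these 3 windows, and 7.02%, 6.75% and 2.98% of promoters held them. A match is a description of letters and not a bound site.

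C1ra (ENSMUSG00000055172.11, chromosome 6, 124489364 to 124500402) encodes the protease C1r that is bound to C1q, and Serping1 (ENSMUSG00000023224.13, chromosome 2, 84595731 to 84605788) encodes C1 inhibitor, the serpin that inactivates C1r and C1s. C1ra had 2.41, 1.92, 6.33 and 4.26 CPM in control replicates 3, 4, 5 and 6, and 11.5, 29.7, 7.01 and 17.8 CPM in knockdown replicates 2, 3, 4 and 5. Knockdown replicate 4 was the lowest of its group and lay just above control replicate 5. C1ra rose from 3.73 ± 2.01 to 16.5 ± 9.85 CPM (n = 4, SD), a log2 fold change of 2.14 (SE 0.50) at an edgeR adjusted p of 0.0117. Without both libraries numbered 3 it was 2.84-fold higher and missed the threshold (edgeR adjusted p = 0.0611), and with limma-voom it was 2.53-fold higher. C1ra has a near-identical copy, C1rb, and reads that aligned to both were not counted, so the level of C1ra is uncertain.

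Serping1 had 6.42, 6.47, 13.7 and 10.1 CPM in control replicates 3, 4, 5 and 6, and 40.5, 58.5, 28.3 and 65.4 CPM in knockdown replicates 2, 3, 4 and 5. Its lowest knockdown library was again replicate 4, still above all controls. Serping1 rose from 9.18 ± 3.49 to 48.2 ± 16.9 CPM (n = 4, SD), a log2 fold change of 2.39 (SE 0.33) at an edgeR adjusted p of 0.000935, the smallest of the 9 members. For C1ra and Serping1 the highest knockdown libraries were replicates 3 and 5, whereas for C1qb and C1qc they were replicates 2 and 3.

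C4b (ENSMUSG00000073418.5, chromosome 17, 34947354 to 34962856) encodes complement C4, the protein cleaved by C1s, and was the most abundant member. C4b had 54.0, 124.8, 220.7 and 201.7 CPM in control replicates 3, 4, 5 and 6, and 1099.8, 787.2, 885.0 and 573.8 CPM in knockdown replicates 2, 3, 4 and 5. Control replicate 3 was the lowest control here, where it was the highest for the C1q chains. C4b rose from 150.3 ± 76.4 to 836 ± 218 CPM (n = 4, SD), a log2 fold change of 2.48 (SE 0.41) at an edgeR adjusted p of 0.00244. Per kilobase of exon its level was 26.4 CPM in control and 146.9 CPM in knockdown, above each other member in both groups. It made up 62.8% to 87.4% of the summed CPM of the 9 members in control and 74.8% to 91.9% in knockdown libraries. C4b has a near-identical neighbour, C4a, and reads that aligned to both were not counted, so its level is uncertain. C4a had 0.167 to 1.87 CPM in control and 0.688 to 1.51 CPM in knockdown libraries.

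C3 (ENSMUSG00000024164.16, chromosome 17, 57510970 to 57535136) encodes the component on which the pathways meet. C3 had 5.36, 5.39, 6.55 and 7.22 CPM in control replicates 3, 4, 5 and 6, and 33.9, 76.4, 16.9 and 32.1 CPM in knockdown replicates 2, 3, 4 and 5. The controls were close together and the knockdown libraries ranged widely, with replicate 3 far above and replicate 4 below the others. C3 rose from 6.13 ± 0.916 to 39.8 ± 25.6 CPM (n = 4, SD), a log2 fold change of 2.70 (SE 0.40) at an edgeR adjusted p of 0.00151. Without both libraries numbered 3 the rise was 4.30-fold, and with limma-voom 3.73-fold, against 6.48-fold in the fit of all libraries.

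The receptors were at low levels. C3ar1 (ENSMUSG00000040552.9, chromosome 6, 122824097 to 122833120) encodes the receptor for C3a. It had 0.379, 0.167, 0.258 and 0.269 CPM in control replicates 3, 4, 5 and 6, and 1.95, 1.16, 0.933 and 0.966 CPM in knockdown replicates 2, 3, 4 and 5. These are 8 to 38 reads per control library and 64 to 198 reads per knockdown library, and the groups did not overlap. C3ar1 rose 4.63-fold (log2 fold change 2.21 with SE 0.43, edgeR adjusted p = 0.00489).

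C5ar1 (ENSMUSG00000049130.7, chromosome 7, 15980668 to 15993465) encodes the receptor for C5a. It had 42 reads in control replicate 3 (0.568 CPM), 2 reads each in replicates 4 and 5, which is under the floor, and 14 in replicate 6 (0.099 CPM). The knockdown replicates 2, 3, 4 and 5 had 62, 62, 38 and 24 reads, or 0.609, 1.12, 0.506 and 0.283 CPM. Control replicate 3 thus lay above knockdown replicates 4 and 5, and the other controls lay below all knockdown libraries. The log2 fold change was 1.80 (SE 0.97, edgeR adjusted p = 0.194). Without control replicate 3 it was 3.496 (edgeR adjusted p = 0.00802), and without both libraries numbered 3 it was 3.07 (edgeR adjusted p = 0.00713). C5ar1 passed the filter through its knockdown libraries. Both of these fits leave out control replicate 3, the only control at the filter cutoff, so no rise is read from their p-values. That control also had the highest summed level of microglia markers in its group (40.1 CPM, other controls 25.6 to 30.0 CPM), whose part in the C5ar1 value was not tested. Hc, the gene of C5 itself, had 0.23 to 0.27 CPM in control replicates 4 to 6, no read in control replicate 3 and 0.413 to 1.34 CPM in knockdown libraries, and did not pass the test (log2 fold change 2.18 with SE 0.85, edgeR adjusted p = 0.0804).

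The proportions between members were compared within each library. Per kilobase, C1qa was 1.29 to 1.73 times the level of C1qb in the 6 libraries that are not numbered 3, 2.43 times in control replicate 3 and 4.11 times in knockdown replicate 3. C4b was 16.1 to 47.4 times the level of C3 in the same 6 libraries, 9.10 times in control replicate 3 and 9.30 times in knockdown replicate 3. C3ar1 was at 1.0997 to 9.55 times the level of C5ar1 in those 6 libraries and at 0.398 and 0.616 times in control and knockdown replicate 3. This last ratio is uncertain in control replicates 4 and 5 (2.39 and 9.55), where C5ar1 had 2 reads each, under the floor. Both libraries numbered 3 were thus at the extreme of all 3 ratios, in the same direction. The level of C1qc over C1qb was also highest in knockdown replicate 3 (0.822). In control replicate 3 it was 0.619, within the range of 0.524 to 0.711 of the other libraries.

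**Figure D2:**
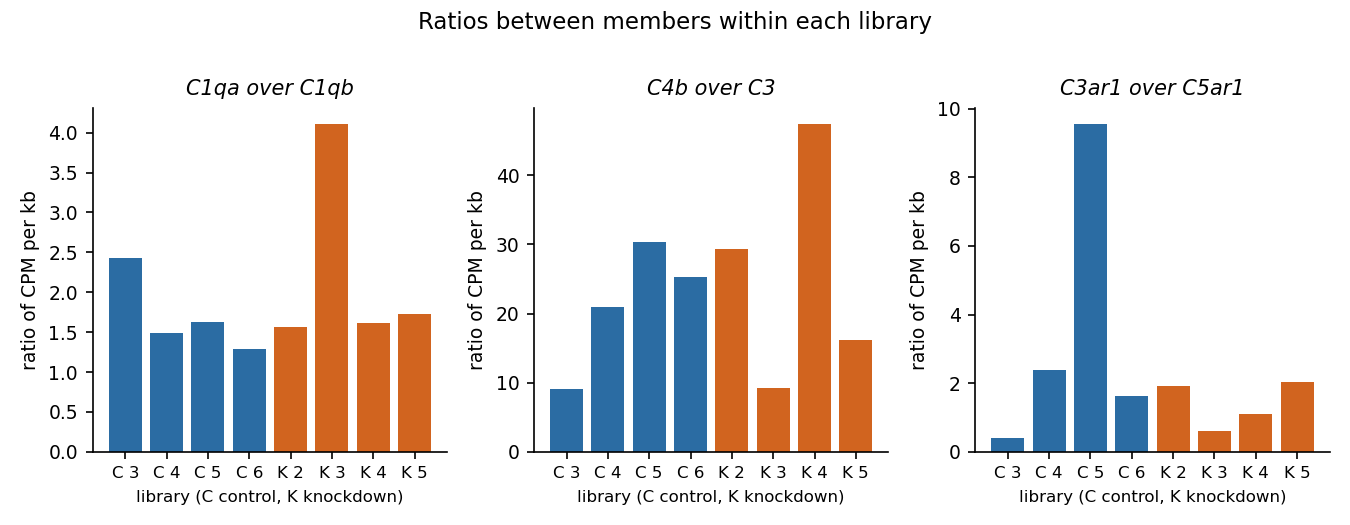
Ratios of CPM per kilobase between pairs of members in each library (C, control; K, knockdown; the number is the replicate), bars from 0. C 3 and K 3 have the highest C1qa over C1qb (2.43 and 4.11) and the lowest C4b over C3 (9.10 and 9.30) and C3ar1 over C5ar1 (0.398 and 0.616). In C 4 and C 5, C3ar1 over C5ar1 rests on 2 reads of C5ar1 each.

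Because glial markers were higher in the same libraries, each member was also expressed relative to them, as its log2 CPM minus the mean log2 CPM of the 10 microglia or the 8 astrocyte markers. Relative to microglia markers, C1qb was at 0.63 ± 0.40 in control and 1.41 ± 0.26 in knockdown libraries, and C1qc at 0.72 ± 0.40 and 1.58 ± 0.40 (SD, n = 4). These differences of 0.78 and 0.86 had an exact two-sided permutation p of 0.0571 each. Relative to astrocyte markers, C4b was at -0.20 ± 0.41 in control and 0.70 ± 0.36 in knockdown libraries (SD, n = 4), a difference of 0.89 with an exact permutation p of 0.0571. The mean difference was above 0 for 9 of 9 members. It was the same for a member on both scales, since the microglia and astrocyte marker means both differed by 1.74 between groups, so the astrocyte scale adds nothing to that count, while the spread within groups differed between the scales. With all 8 libraries the groups overlapped in all 18 comparisons, and the smallest exact permutation p was 0.0571. The smallest p that 4 against 4 libraries allow is 0.0286, and an adjusted p under 0.05 would need 11 of the 18 comparisons to reach it, so the adjusted values (smallest 0.343) say little. Control replicate 3 decided the overlap for several members. Without it, C1qa, C1qb, C1qc and C3ar1, 4 of the 9 members, lay above all controls in each knockdown library relative to microglia markers. Their differences were then 1.47, 0.97, 1.06 and 0.49, at exact two-sided permutation p of 0.0571, 0.0286, 0.0286 and 0.0286, and each had an adjusted p of 0.103 over the 18. C3, C4b, C1ra, Serping1 and C5ar1 still overlapped between groups on that scale. Relative to astrocyte markers, C1qa, C1qb, C1qc, C4b, C3ar1 and C5ar1 lay above all remaining controls, while C3, C1ra and Serping1 overlapped. For C4b the difference was then 1.08, at an exact two-sided permutation p of 0.0571 (adjusted 0.103). Groups separate more easily against fewer controls, and the share of all genes that separate on these scales was not computed. No conclusion is therefore drawn from the numbers of members that separated without control replicate 3.

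**Figure D3:**
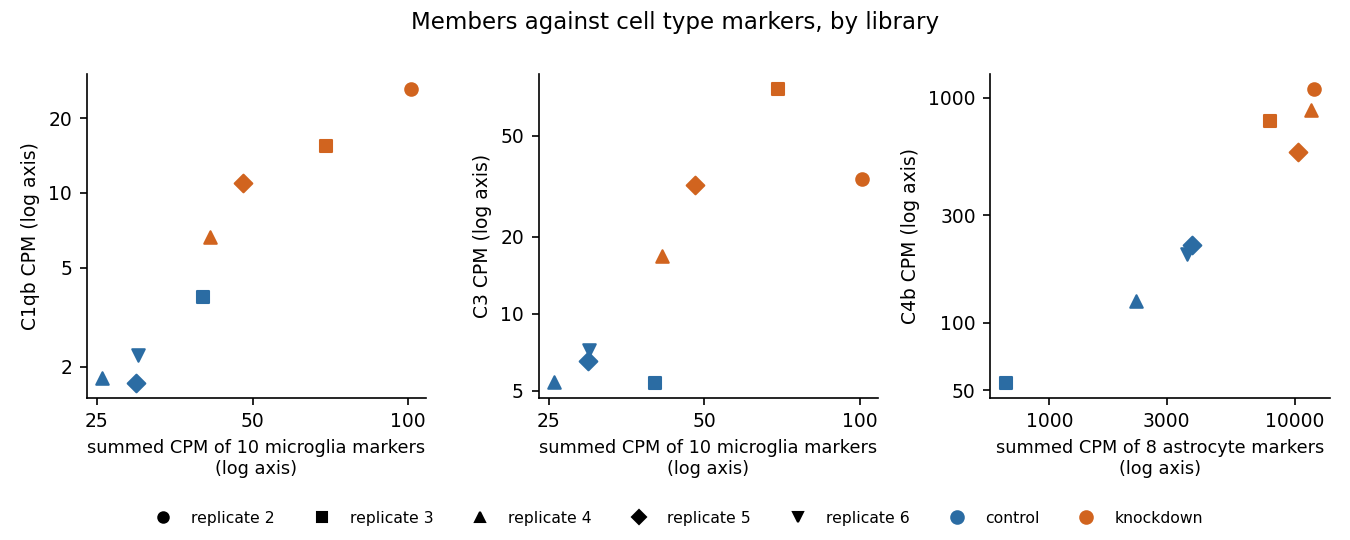
CPM of C1qb and C3 against the summed CPM of 10 microglia markers, and of C4b against that of 8 astrocyte markers, on log axes. Points are libraries, coloured by group with the shape giving the replicate; C1qb is highest in knockdown replicate 2, where the microglia markers are highest too (101 CPM), C3 in control replicate 3 stays at 5.36 CPM at a marker level near that of knockdown replicate 4, and C4b lies lowest in control replicate 3, where astrocyte markers are lowest (664 CPM).

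Other complement genes were followed in a list of 49, of which 33 passed the filter on low counts. Of these, 7 rose, 4 fell and 22 did not pass (edgeR adjusted p under 0.05), against 13.4% rising and 15.1% falling among all genes tested, and their median log2 fold change was 0.33. The 11 changed genes became 18 without control replicate 3, 7 without control replicate 4, 5 or 6, and 21 without both libraries numbered 3.

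In the classical pathway C1rb, a near-identical copy of C1ra whose counts are therefore uncertain, rose 3.39-fold. C2, the protein that C1s cleaves beside C4, rose 2.55-fold from 0.695 ± 0.222 CPM (SD, n = 4), a call that did not hold without control replicate 4, 5 or 6, nor without knockdown replicate 3, 4 or 5 (edgeR adjusted p = 0.0546 to 0.0909). Without both libraries numbered 3 C2 was 1.66-fold higher and missed the threshold (edgeR adjusted p = 0.0693), and it also did so with no filter on low counts (0.0561). C1s1, which encodes C1s and had the highest level per kilobase of this class, had 0.501 to 2.19 CPM in control and 0.845 to 4.02 CPM in knockdown libraries (edgeR adjusted p = 0.319). C1s2 was not tested, at 0 to 30 reads per library. Colec11, a lectin pathway recognition protein, rose 4.30-fold from 1.13 ± 0.387 to 4.91 ± 0.917 CPM (SD, n = 4; edgeR adjusted p = 0.00118). Mbl1, a mannose-binding lectin, had no read in any of the 8 libraries.

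Few genes of the alternative and terminal arms were tested, 1 of 3 and 2 of 7. Cfb and Cfd, which encode factors B and D of the alternative pathway, had at most 16 reads in a library and were not tested. Properdin, Cfp, had 2.40 to 11.1 CPM in control and 2.03 to 3.597 CPM in knockdown libraries (edgeR adjusted p = 0.244). Of 7 terminal components 5 were not tested, with C8a and C9 at 0 in most libraries. C8g, which encodes a small chain of C8, rose 2.10-fold from 2.27 ± 0.792 to 4.77 ± 0.960 CPM (SD, n = 4; edgeR adjusted p = 0.0226). That call was lost without knockdown replicate 2 and without control replicate 4, 5 or 6 (edgeR adjusted p = 0.0517 to 0.0705).

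Among 15 regulators tested, 2 rose and 4 fell. Clu, which encodes clusterin, a chaperone that also blocks assembly of the terminal complex, had 548, 980, 1332 and 1363 CPM in control replicates 3, 4, 5 and 6, and 4354, 4044, 3567 and 3093 CPM in knockdown replicates 2, 3, 4 and 5. It was above all the members in level per kilobase and rose 3.56-fold (log2 fold change 1.83 with SE 0.27, edgeR adjusted p = 0.00131). Cd59a, the membrane inhibitor of the terminal complex, had 26.9, 21.0, 26.0 and 21.1 CPM in the same controls and 6.96, 6.15, 6.00 and 7.54 CPM in the same knockdown libraries. It fell with little spread within the groups (log2 fold change -1.83 with SE 0.16, edgeR adjusted p = 0.000151), and its copy Cd59b fell too (log2 fold change -1.24 with SE 0.32, edgeR adjusted p = 0.0173).

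Srpx2, which encodes a secreted C1q-binding protein made by neurons, fell from 3.83 ± 1.49 to 0.728 ± 0.296 CPM (n = 4, SD), a log2 fold change of -2.39 (SE 0.41) at an edgeR adjusted p of 0.00261. Susd4, a membrane protein with complement control repeats, fell less (log2 fold change -0.48 with SE 0.15, edgeR adjusted p = 0.0373), with overlapping groups. Its call was lost with upper quartile scaling (edgeR adjusted p = 0.0602) and without any library other than control replicate 3 or knockdown replicate 5 (0.0615 to 0.101). Cd55, which speeds the decay of the enzymes that cleave C3, rose 1.45-fold (edgeR adjusted p = 0.0357), and missed the threshold without any library other than control replicate 3 (0.0582 to 0.115). Dopamine neuron markers fell in the same libraries (7 of 7) and astrocyte markers were higher (3 of 8 by the test, 7 of 8 with groups that do not overlap), and their part in these changes was not tested. Vtn, which encodes vitronectin, had 166.7 CPM in control replicate 3 and 1.87 to 4.24 CPM in the other controls, against 6.84 to 11.6 CPM in knockdown libraries (edgeR adjusted p = 0.213).

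**Figure D4:**
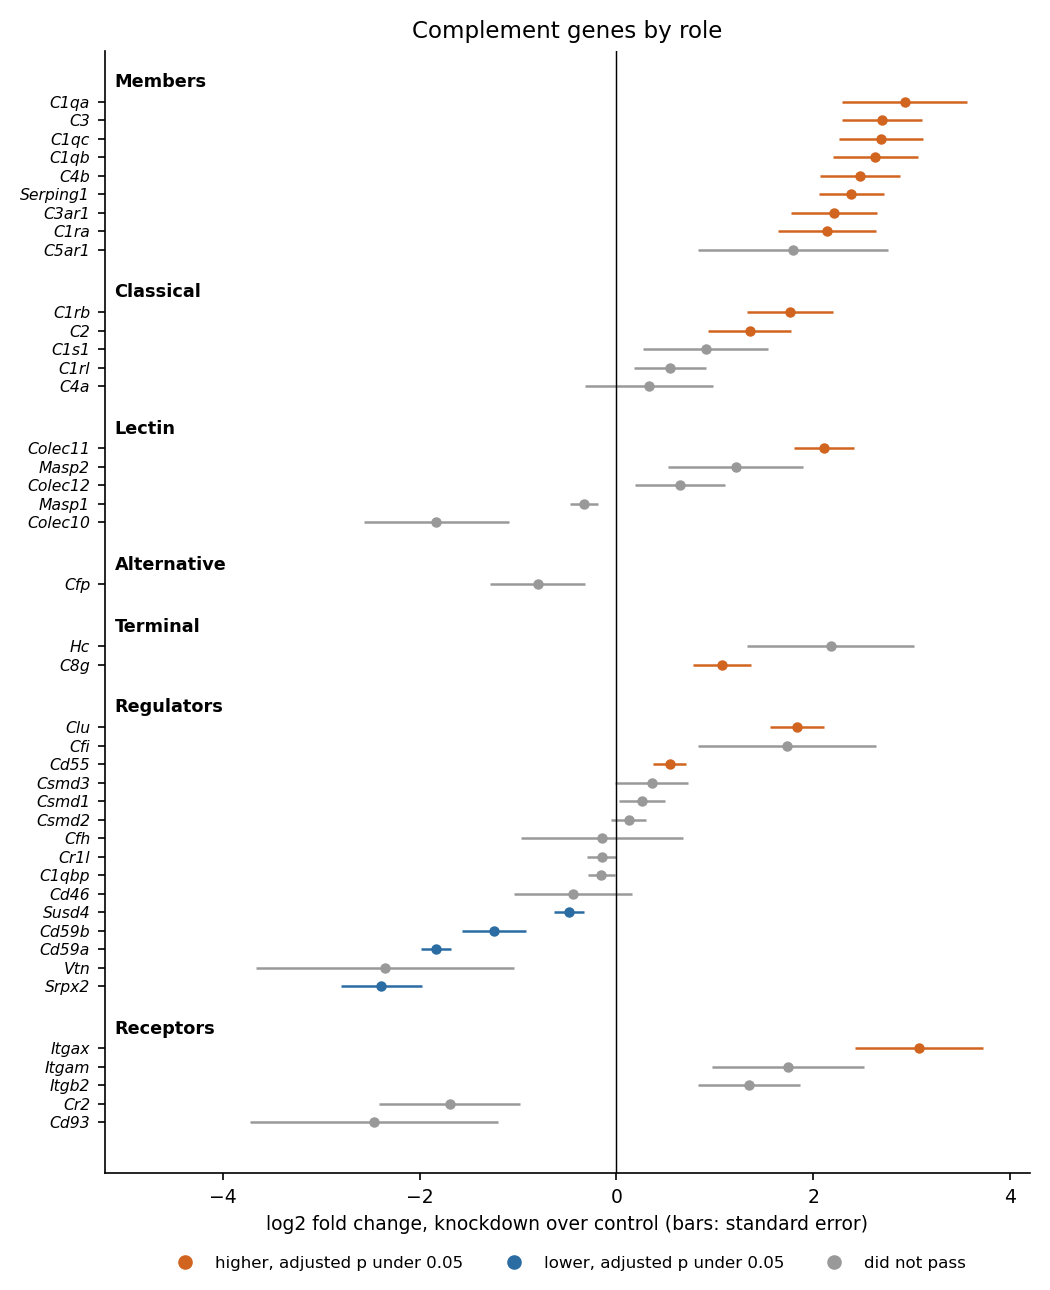
Log2 fold change of the 9 members and of the 33 other complement genes tested, grouped by role, with standard errors from edgeR's test on 4 against 4 libraries. The members lie between 1.80 and 2.93, while the other genes spread on both sides of 0, with Cd59a, Cd59b, Srpx2 and Susd4 lower.

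Of 7 other receptor genes 5 were tested, and 1 of these, Itgax, rose. Itgax encodes the alpha chain of complement receptor 4, an integrin that binds C3 fragments. It had 0.433, 0.167, 0.370 and 0.198 CPM in control replicates 3, 4, 5 and 6, and 5.17, 3.01, 0.933 and 0.825 CPM in knockdown replicates 2, 3, 4 and 5. It rose 8.42-fold (edgeR adjusted p = 0.00709), and 5.32-fold without knockdown replicate 2. Itgam, the alpha chain of complement receptor 3, and Itgb2, the beta chain both share, did not pass (log2 fold changes 1.74 and 1.35, edgeR adjusted p = 0.121 and 0.0754). Vsig4, a C3b receptor of macrophages, had 2 reads in 1 library and none in the others. Markers of border macrophages and blood myeloid cells were low, at a summed level of 1.61 to 2.88 CPM in control and 3.38 to 7.19 CPM in knockdown libraries, and of these 8 genes 1 rose, Cd163. S100a8, a neutrophil marker, was at 0 in all 4 controls and at 6 to 12 reads in 3 knockdown libraries. Other genes of this list did have reads in controls. S100a9 had 6 reads each in control replicates 3 and 6 and 4 to 56 reads in knockdown libraries. Plac8 had 12 and 8 reads in the same controls and 2 to 66 reads in knockdown libraries.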

How the data were processed

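Whole-number read counts per gene were deposited by the authors for 8 libraries (4 Ogt knockdown, 4 control). Counting used featureCounts 2.0.3 over exons of GENCODE vM30, per the file headers. Its command sets no strand, pair or multi-alignment option, so mates were counted singly and multi-aligned reads were left out. Of the 72 member values, 76.4% are even numbers, so independent fragments are fewer than reads. Per the submitters' processing notes, FastQC, Trimmomatic, STAR and the build mm10 were used. GENCODE vM30 describes GRCm39, and this conflict was not resolved. Coordinates are those of the table.

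Symbols came from a reference table of gene IDs (52073 of 56691 matched). Genes passing filterByExpr (19912) were TMM-scaled and tested with edgeR 4.0.16 (glmQLFit, robust; glmQLFTest) in R 4.3.3, with Benjamini-Hochberg adjustment and a threshold of 0.05. Log2 CPM used a prior count of 2. Alternatives tried were upper quartile or RLE scaling, a strict filter or none, DESeq2 1.42.0, limma-voom (limma 3.58.1), estimation that is not robust, a replicate block, and leaving out libraries. For the values relative to markers they were a prior count of 0.5, RLE scaling, the median of the markers and leaving out libraries. The test was tested on simulated data. No same-group libraries were duplicates (chi-square per degree of freedom 22.9 to 420). Named were all members, Ogt, listed complement genes past the threshold and those of highest or lowest level in their class, cell type markers and genes of like pattern; other genes named were chosen after their values were seen. The members and lists were chosen with earlier results of these data known.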

Additional observations from a re-analysis of the deposited data

How the results depend on the processing

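Of the 9 members, C1qa, C1qb, C1qc, C3, C4b and Serping1 passed as higher under all 17 alternatives, and no member changed direction. The number of members past the threshold was 8 to 9 when single libraries were left out, and 7 of 7 with the strict filter, which C3ar1 and C5ar1 did not pass. C3ar1 and C1ra missed it with the replicate number as a block (edgeR adjusted p = 0.0857 and 0.0554, at 3.94-fold and 4.96-fold), and so did C2 (0.184). C5ar1, which passed the filter through its knockdown libraries, passed with limma-voom (adjusted p = 0.0013). Genes past the threshold, 5668 in the fit of all libraries, numbered 10208 with limma-voom, 9565 without both libraries numbered 3, 1258 with the replicate block and 3876 to 7198 when single libraries were left out. The 11 other complement genes became 21 with limma-voom, 21 without both libraries numbered 3, 3 with the replicate block and 7 to 18 when single libraries were left out. Same-numbered libraries deviated together only weakly (correlations of 0.10, 0.10 and 0.04 for numbers 3, 4 and 5), so the numbers were not taken as pairs.

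Of 216 alternative values of the 18 differences from markers, 6 changed sign. With the median of the markers C1ra was -0.13 and C3ar1 -0.11 relative to microglia markers. Without both libraries numbered 3 C1ra was -0.18 relative to microglia markers, a design of 3 against 3 that cannot reach p under 0.05. When single libraries were left out, relative to astrocyte markers C1ra ranged from -0.086 (and was -0.0096 without control replicate 4) to 0.82, and C5ar1 from -0.21 to 2.00. Depth limits C5ar1 and C3ar1, with 2 to 42 and 8 to 38 reads per control library.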

Other observations

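Genes of like pattern were sought among the genes tested with a mean log2 CPM above 0, by Pearson's r over the 8 libraries between deviations from the group means, given as a description since libraries share depth and makeup. For the mean of the 3 C1q chains these were Bard1, AW146154, Olfml3, Amy1 and Ptpn6 (r = 0.96 to 0.98). Of these 5, Bard1, AW146154 and Amy1 had log2 fold changes of -0.66, -0.14 and -0.30 and did not pass (edgeR adjusted p = 0.161, 0.698 and 0.659). Olfml3, a microglia-enriched gene, rose from 2.24 to 6.65 CPM and Ptpn6, a phosphatase of blood-lineage cells, from 0.591 to 2.58 CPM in group mean (edgeR adjusted p = 0.00499 and 0.0139). For C3 they were Ttc32, Sap30, Crym, Rpl37 and Ybx1 (r = 0.97 to 0.99), and for C4b Myo6, 1110019D14Rik, Il33, A230001M10Rik and Myh15 (r = 0.98 to 0.996). With 8 libraries, values this high are found for some genes among many.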
